A study of Mus musculus with 6 samples.

Results

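The genes described here encode the nuclear-encoded subunits of the last steps of oxidative phosphorylation, complex III (cytochrome bc1), complex IV (cytochrome c oxidase) and the ATP synthase (complex V). They were chosen by symbol alone: Cyc1 and every gene of the count table whose name starts with Uqcr, Cox4 to Cox8 or Atp5, without names that carry -ps. The rule found 45 of 55376 genes, of which 9 belong to complex III, 19 to complex IV and 17 to the ATP synthase. RIP-seq, the sequencing of RNA that comes down with an immunoprecipitated protein, had been carried out on freshly isolated muscle stem cells (satellite cells, SCs) of C57BL/6 mice aged 3 months, sorted as CD31-, CD45-, Sca1- and Vcam1+. Of the 6 libraries, 2 came from RNA precipitated with an antibody to CPEB1 (CPEB1 IP), 2 from a control precipitation with an IgG antibody (IgG) and 2 from RNA that had not been precipitated (input). All 3 groups share strain, age, sort and time point, and no group is treated or genetically altered. The comparison of CPEB1 IP with IgG asks which transcripts were recovered with CPEB1 beyond those that the precipitation carries along. The comparisons with input ask how each precipitate differed from the RNA of the cells.

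Complex III passes electrons from ubiquinol to cytochrome c, complex IV passes them on to oxygen, and both pump protons across the inner mitochondrial membrane; the ATP synthase lets the protons flow back and makes ATP. A few subunits of each complex are made inside the mitochondrion, whereas the others are translated from short cytoplasmic mRNAs and imported. CPEB1 is a sequence-specific RNA-binding protein that binds cytoplasmic polyadenylation elements (CPEs) in 3′ untranslated regions (UTRs) and controls poly(A) tail length and translation.

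Counts on genes lay between 1284716 and 1359052 in IgG, 3270067 and 3314547 in input, and 2564323 and 4941653 in CPEB1 IP. Genes took 39.1% to 39.5% of the library total behind the deposited FPKM in IgG, against 69.5% to 69.9% in CPEB1 IP and 71.1% to 79.8% in input. The members took 0.529% to 0.548% of gene counts in IgG, 0.636% to 0.699% in input and 0.700% to 0.736% in CPEB1 IP. The 8 listed satellite cell markers summed to 7952 to 8069 CPM (counts scaled by library size) in IgG. The sums were 8679 to 10613 in CPEB1 IP and 10346 to 11746 in input. Sdc4 alone lay at 5146 to 7017 CPM across the libraries. Pax7, the defining transcription factor of SCs, lay at 324 and 347 CPM in input and at 79.6 to 91.2 CPM in the 4 precipitates. Against input, edgeR at an adjusted p under 0.05 called 6 of the 8 markers lower in IgG and 5 in CPEB1 IP. Over all genes tested 19.4% and 16.7% were lower. Markers of other cell types also differed between input and the precipitates. The 5 endothelial markers summed to 123 to 126 CPM in CPEB1 IP and 84.4 to 130.5 in IgG, against 31.3 to 42.6 in input, and the 2 erythroid markers to 66.0 to 80.6, 63.1 to 65.8 and 4.23 to 8.98 CPM. The 5 fibro-adipogenic markers lay at 518 to 525, 366 to 419 and 246 to 302 CPM and the 5 haematopoietic ones at 54.9 to 65.4, 61.3 to 65.2 and 21.1 to 32.0, with Cd52 at 0 in input, whereas the 4 mural markers were lowest in the precipitates, at 386 to 392 and 276 to 277 CPM against 714 to 847. In CPEB1 IP Lyz2 held 44.7 and 46.9 CPM of the haematopoietic sums. Ptprc held 0 and 1.83 CPM there and 20.9 and 9.32 in IgG. The differences of these markers from input move with every comparison to input below, and their part in those results was not tested. The study describes the libraries of a group as biological replicates from 2 experiments, without saying how animals were assigned to them, and each p-value measures the spread between these libraries. In such bulk samples fewer cells of a type and less RNA per cell cannot be told apart.

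Most members were abundant in SCs. FPKM, the deposited fragment count scaled to summed exon length and to a library total, was highest in input for Cox8a, a small subunit of complex IV, at 264 and 326. Atp5b, the catalytic beta subunit of the ATP synthase, followed with 212 and 266, Cox6a1 with 205 and 238, Cox4i1, the largest nuclear-encoded subunit of complex IV, with 169.9 and 205, and Atp5a1, the alpha subunit, with 163 and 189. Each of these genes overlapped its neighbour in the order. Below them Uqcr11 of complex III lay at 141 and 144 FPKM, which did not overlap Atp5a1. The deposited FPKM divides by all annotated exons of a gene, and these are long for some members. Atp5l, subunit g of the ATP synthase, has a coding length of 309 bases and a summed exon length of 6443 bases, and ranked 37 of the members by FPKM in input. When the counts were divided by coding length instead it ranked 29, and Cox8a, Atp5b, Cox4i1, Uqcr11 and Uqcrh took ranks 1 to 5.

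Several subunits of complex IV exist as a widespread isoform and a form of particular tissues, and the SC libraries held mainly the widespread one. Cox6a1 had 662 and 695 counts in input, against 1 and 1 for Cox6a2, the isoform of heart and skeletal muscle. Cox7a2 had 298 and 368 counts, and its heart and muscle counterpart Cox7a1 had 11 and 12. For subunit VIII the counts in input were 751 and 839 for Cox8a, 4 and 6 for the muscle isoform Cox8b, and 0 and 0 for Cox8c, where a count of 0 allows up to 3 counts in a library. The lung isoform Cox4i2 had 15 and 16 counts beside 1212 and 1322 for Cox4i1. Cox6b2 and Cox7b2, known from testis, had 9 and 8 and 1 and 0 counts, whereas Cox6b1 and Cox7b had 299 and 404 and 157 and 222. In each of the 6 libraries the widespread form also had the highest FPKM of its group. The 10 muscle fibre markers summed to 149.9 to 170.3 CPM in input, 169.9 to 182 in IgG and 200 to 225 in CPEB1 IP. Atp2a1 held 81.8 and 70.6 CPM of the input sums and was called lower in both precipitates. Acta1, Mylpf and Tnni2 were called higher than input in both. The median log2 fold change of the tested fibre markers over input was 0.74 in CPEB1 IP and 0.75 in IgG. Fibre RNA at that level stood beside these low counts of the muscle isoforms, where its part was not tested. For subunit c of the ATP synthase, which 3 genes encode as the same mature protein, no form prevailed to that extent, with input FPKM of 13.9 and 14.6 for Atp5g1, 18.9 and 22.3 for Atp5g2 and 21.9 and 30.6 for Atp5g3. Cox6c2, which the annotation lists as a processed pseudogene with 1 exon, had 1 and 7 counts.

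**Figure D1:**
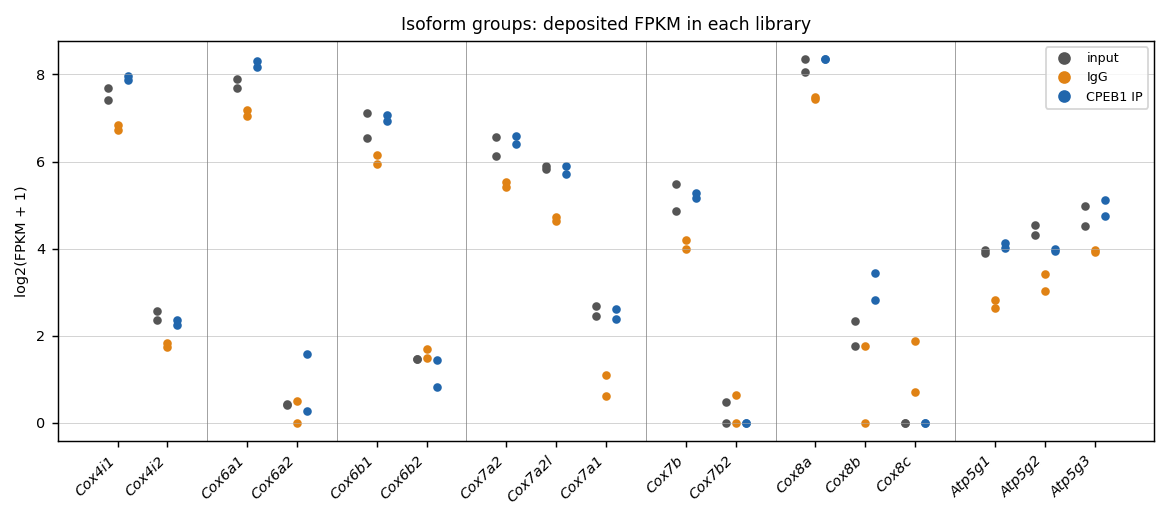
Deposited FPKM of the isoform groups, as log2(FPKM + 1), with 1 point for each library and the groups in grey (input), orange (IgG) and blue (CPEB1 IP). The widespread forms Cox4i1, Cox6a1, Cox6b1, Cox7a2, Cox7b and Cox8a lie far above the tissue-restricted forms in all 6 libraries, while the 3 Atp5g genes lie close together. The IgG libraries had 39.1% to 39.5% of their FPKM total on genes, so isoforms are compared within a group.

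Compared with IgG, CPEB1 IP held more RNA of 21 of the 38 members that passed the filter on low counts, and less of 1. Among all 12124 genes tested with edgeR's quasi-likelihood test at an adjusted p under 0.05, 14.7% were higher and 18.7% lower. The median member had a log2 fold change of 0.36, a fold of 1.28, against -0.01 for all genes tested. Of the members tested, 35 had a fold change above 0. The differences were modest, with the largest increase at 0.94 on the log2 scale, so that no member was 2-fold higher. These fold changes are relative to the counts on genes: when the library total behind the FPKM set the scale, the median of all genes moved from -0.01 to 0.80, and 37 of the 38 members and 59.0% of all genes were called higher.

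**Figure D2:**
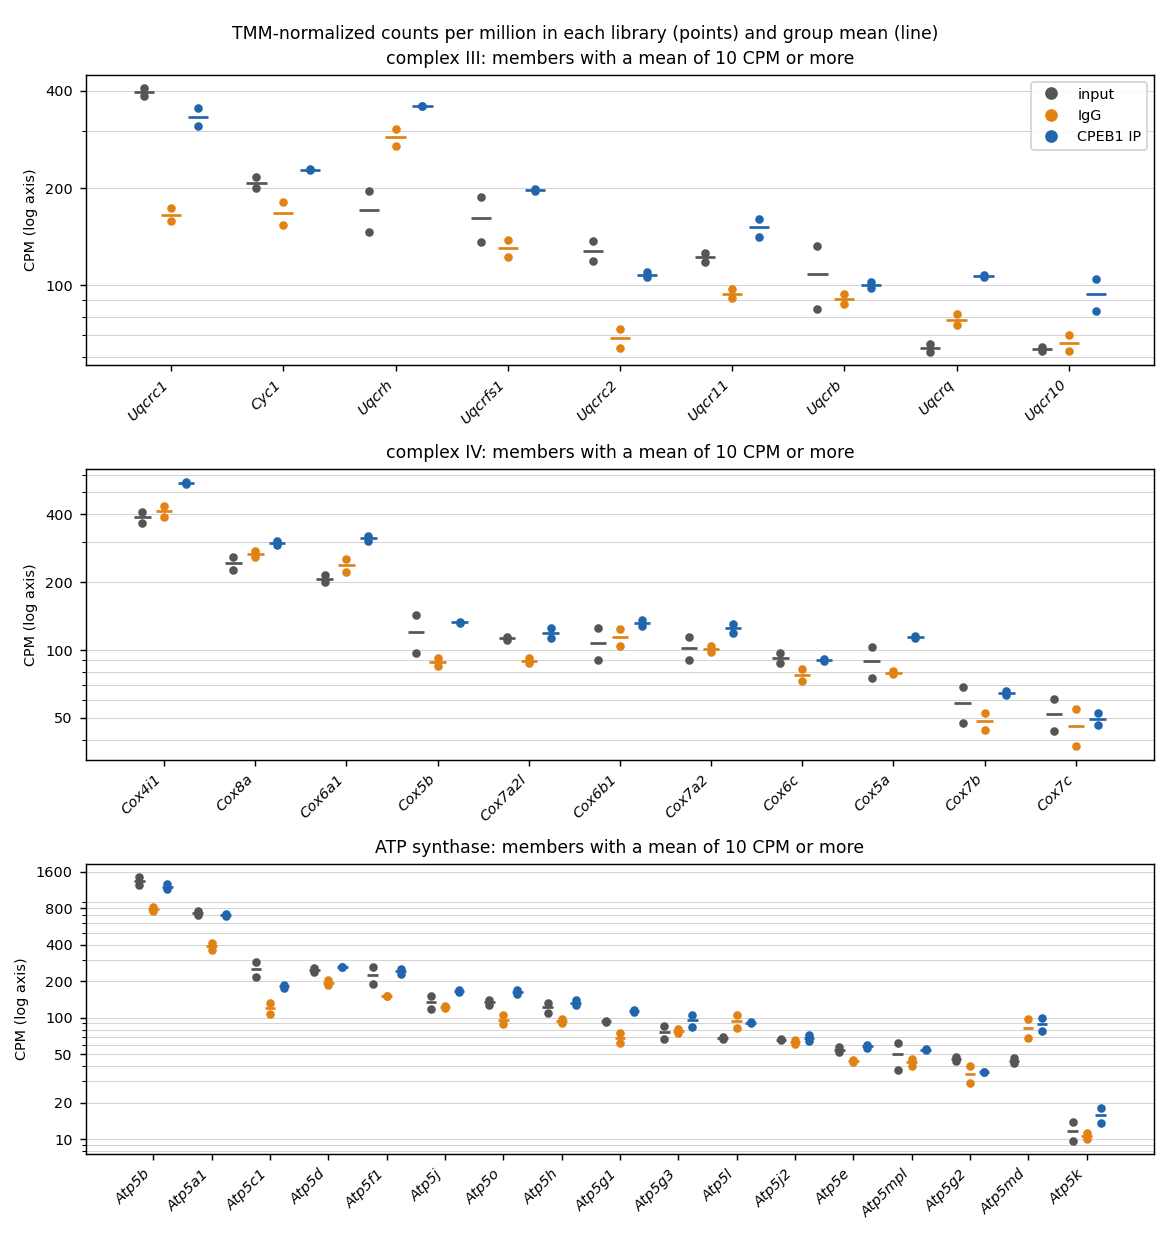
TMM-normalized CPM on a log axis in each library (points, 2 for each group) with the group mean (line), for the members with a mean of at least 10 CPM, which leaves out 8 of complex IV, ordered by their mean in input. In complex III and the ATP synthase the IgG points of the large subunits Uqcrc1, Uqcrc2, Atp5a1, Atp5b and Atp5c1 lie below both other groups, and for Uqcrh and Atp5md the input points lie lowest.

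In complex III, 7 of the 9 subunits rose over IgG, with a median log2 fold change of 0.45. Uqcrc1, a core protein of the matrix arm, had 409 and 387 CPM in input, 311 and 353 in CPEB1 IP and 173 and 158 in IgG. Both CPEB1 IP libraries thus lay above IgG and below input. Its log2 fold change over IgG was 0.94 ± 0.11 (SE, n = 2 and 2, edgeR adjusted p = 3.56e-06). The other core protein, Uqcrc2, had 119 and 137 CPM in input, 109.9 and 106 in CPEB1 IP and 73.2 and 63.8 in IgG, a log2 fold change over IgG of 0.59 ± 0.14 (edgeR adjusted p = 0.00337). The subunits that carry the redox centres were higher as well, with log2 fold changes of 0.54 ± 0.12 for the Rieske iron-sulphur protein Uqcrfs1 and 0.38 ± 0.11 for cytochrome c1, Cyc1, whose call rested on both CPEB1 IP replicate 2 and IgG replicate 2. So all 4 core and redox subunits were called. Of the 5 small accessory subunits 3 were called. Uqcr11 had 141 and 161 CPM in CPEB1 IP against 97.1 and 91.1 in IgG, a log2 fold change of 0.63 ± 0.13 (edgeR adjusted p = 0.00087). Uqcr10 had 83.2 and 104.6 CPM against 62.8 and 70.3, and leaving out CPEB1 IP replicate 2 (edgeR adjusted p = 0.453) or IgG replicate 1 ended the call. Uqcrq was called at a log2 fold change of 0.38, a call lost without any 1 of 3 libraries, and Uqcrh (0.25, edgeR adjusted p = 0.0527) and Uqcrb (0.08) were not called by edgeR. DESeq2 called Uqcrh as well, 8 of the 9 subunits. Over all 42045 genes with a count, without the filter on low counts, DESeq2 called 6.27% higher.

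In complex IV edgeR called 5 of 12 tested subunits higher and 1 lower, with a median log2 fold change of 0.29, and DESeq2 called 9 of the same 12 higher and 0 lower. Cox5b, a subunit on the matrix side, had 96.9 and 143 CPM in input, 132 and 134 in CPEB1 IP and 91.9 and 84.6 in IgG. The CPEB1 IP libraries lay above IgG and within the range of input. Its log2 fold change over IgG was 0.53 ± 0.13 (edgeR adjusted p = 0.00367). Cox5a, the other matrix-side subunit of that kind, had 113 and 115 CPM against 80.7 and 78.2 in IgG, a log2 fold change of 0.46 ± 0.14, and its call was lost when either CPEB1 IP library was left out (edgeR adjusted p = 0.122 without replicate 2). Cox4i1 rose by 0.35, Cox6a1 by 0.33 and Cox7a2l by 0.35 on the log2 scale. The call of Cox6a1 was lost without CPEB1 IP replicate 2 or IgG replicate 1, and that of Cox7a2l without any 1 of 3 libraries, with the replicate block (edgeR adjusted p = 0.0628), with all 6 libraries in 1 fit and with counts on genes as the library size. Cox6b1, Cox6c, Cox7a2, Cox7b, Cox7c and Cox8a were not called by edgeR, with log2 fold changes between 0.05 and 0.36, whereas DESeq2 called Cox6b1, Cox7a2, Cox7b and Cox8a. Cox8a, the member with the highest FPKM in input, had 304 and 292 CPM in CPEB1 IP and 258 and 276 in IgG, a log2 fold change of 0.09 ± 0.10. The lower gene, Cox6b2, rested on 7 and 6 counts in CPEB1 IP and 8 and 7 in IgG, passed the filter through its level in IgG, and was not called by DESeq2 or without any 1 library. The other 7 members of complex IV were under the count filter in this comparison. They are Cox4i2, Cox6a2, Cox6c2, Cox7a1, Cox7b2, Cox8b and Cox8c, of which Cox4i2, Cox7a1 and Cox8b passed in CPEB1 IP against input, and Cox4i2 in IgG against input.

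For the ATP synthase, edgeR called 9 of 17 subunits higher over IgG and none lower, with a median log2 fold change of 0.37, and DESeq2 called 11 higher. In the F1 head, where ATP is made, 4 of 5 subunits were higher. Atp5a1 had 710.4 and 763 CPM in input, 698 and 719.7 in CPEB1 IP and 418 and 361 in IgG, a log2 fold change over IgG of 0.80 ± 0.10 (edgeR adjusted p = 6.06e-06). Atp5b, the most abundant member by CPM, had 1267 and 1147 CPM against 755 and 821, a log2 fold change of 0.55 ± 0.09 (edgeR adjusted p = 0.000181). The gamma subunit Atp5c1, which forms the central shaft, was higher by 0.53, the delta subunit Atp5d by 0.36, and the epsilon subunit Atp5e was at 0.35, called by DESeq2 (adjusted p = 0.0444) but not by edgeR.

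All 4 subunits of the peripheral stalk, which holds the head in place, rose. Atp5o, known as OSCP, had 171 and 156 CPM in CPEB1 IP against 88.9 and 104.7 in IgG, a log2 fold change of 0.68 ± 0.13 (edgeR adjusted p = 0.000405). Atp5f1, subunit b, was at 0.61, Atp5h, subunit d, at 0.42 and Atp5j, the coupling factor F6, at 0.37, and the calls of Atp5h and Atp5j were lost when either CPEB1 IP library was left out. Of the 3 genes of the proton-carrying c subunit, Atp5g1 rose with 111 and 117 CPM against 62.0 and 74.6, a log2 fold change of 0.68 ± 0.14 (edgeR adjusted p = 0.00118). Atp5g3 was at 0.24, called by DESeq2 (adjusted p = 0.0396) but not by edgeR, and Atp5g2 was at -0.01 and called by neither. None of the 5 small membrane subunits Atp5k, Atp5j2, Atp5l, Atp5md and Atp5mpl was called, with log2 fold changes between -0.12 and 0.54, none at an unadjusted p under 0.05 by edgeR and none called by DESeq2. By edgeR's count the small membrane subunits stood at 0 of 5 and the head and stalk together at 8 of 9. The difference between these parts, and that between the 3 complexes, was not tested.

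**Figure D3:**
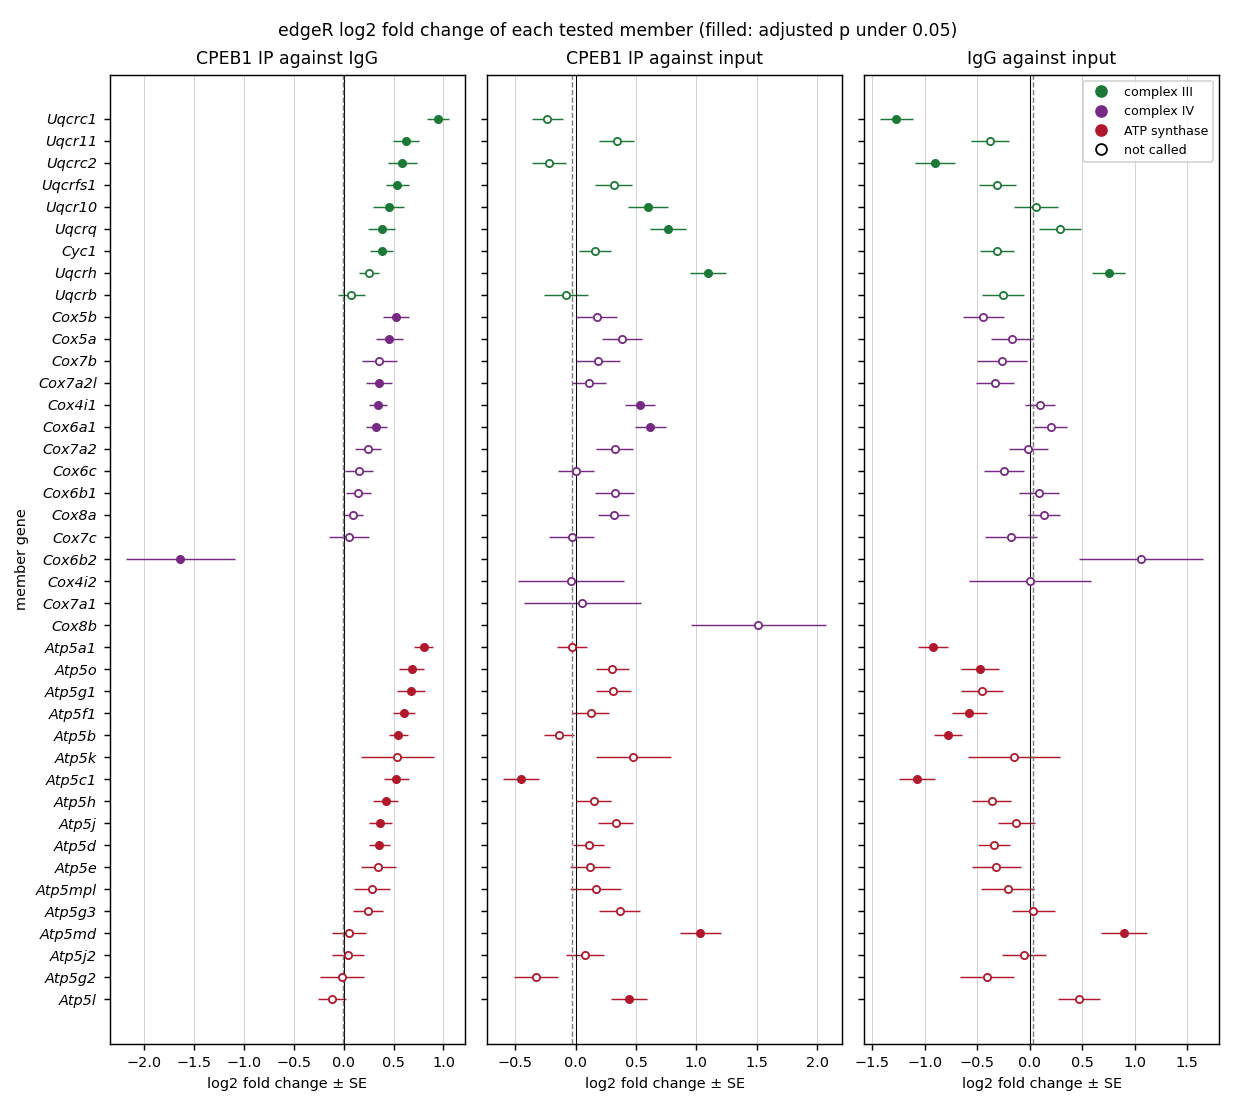
Log2 fold change (x axis, with SE bars) of each tested member in the 3 comparisons, coloured by complex, with filled points where the edgeR adjusted p was under 0.05, the solid line at 0 and the dashed line at the median of all genes. In CPEB1 IP against IgG nearly all points lie right of 0, and in IgG against input the filled points of complex III and the ATP synthase lie mainly to the left.

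The members were compared with other abundant genes, since highly expressed genes in general were higher in CPEB1 IP than in IgG. Across all 12124 genes Spearman's rho between input FPKM and the log2 fold change was 0.63, a description over genes of the same libraries. Among the 3699 tested genes with an input FPKM of at least 10, a limit chosen after the values were seen, 39.1% were called higher and the median log2 fold change was 0.30. Of the 36 members in that class 58.3% were called higher, with a median of 0.36. The member share was thus nearer to that of this class than to that of all genes. Beyond its lower limit the class is not matched to the members by level. Cox5b, which ranked 19 of the members in input FPKM, lay above 97.2% of the genes with a count in input. Whether the members exceed genes of the same level was not tested. The 79 cytosolic ribosomal protein genes of that class, also short and abundant mRNAs, had 5.06% called higher and a median of -0.05. By DESeq2, whose scaling differs, 30 of all listed ribosomal protein genes were higher in place of 4 by edgeR, and 28 members in place of 21. Its share over all 42045 genes with a count, many of them under edgeR's filter, was 6.27%.

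Among the other respiratory genes all 4 complex II subunits were higher over IgG, led by Sdha (0.86), the flavoprotein of succinate dehydrogenase. Of 38 complex I subunits tested, 14 were higher and 1 lower, with a median of 0.40. Of the assembly factors 1 of 4 for complex III, 3 of 18 for complex IV and 0 of 3 for the ATP synthase were called higher. Their median log2 fold changes were 0.40, 0.16 and 0.26 in the same order. Coa7, a complex IV assembly factor, had 8.15 and 10.2 CPM in input, 57.8 and 58.9 in CPEB1 IP and 15.7 and 22.9 in IgG. Its log2 fold change over IgG, 1.52, lay above that of every member. Cycs, the cytochrome c that carries electrons between the complexes, was at 0.26 and was called by DESeq2 but not by edgeR. The mitochondrially encoded partners did not share the direction: mt-Co1, a catalytic subunit of complex IV, had 5442 and 3885 CPM in CPEB1 IP against 5744 and 5724 in IgG and was called lower by edgeR (log2 fold change -0.36) and not by DESeq2, and mt-Cytb of complex III was at -0.24 without a call. Among the 8 listed regulators of respiratory genes edgeR called none higher and DESeq2 3, and Ppargc1a (-1.44) and Ppargc1b (-1.48), coactivators of mitochondrial biogenesis, were lower by edgeR and not by DESeq2. Ppargc1a had 6.56 and 4.26 CPM in CPEB1 IP against 11.2 and 15.8 in IgG, a low level in every library.

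**Figure D4:**
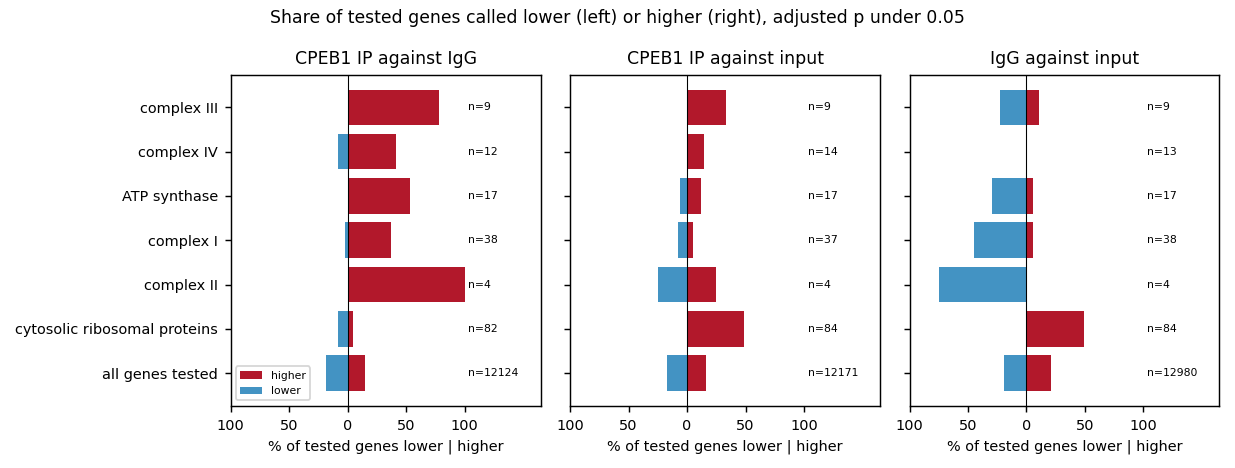
Percent of the tested genes of each list called higher (right of 0, red) or lower (left of 0, blue) in each comparison, with the number tested at the right. In CPEB1 IP against IgG complexes II and III lead and cytosolic ribosomal proteins stay under 10% in either direction, whereas in both comparisons with input 48.8% of the ribosomal proteins were higher.

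By the criterion of the study's methods, an FPKM ratio of CPEB1 IP over IgG above 2 in each experiment together with a significant count test, here edgeR with a pseudocount of 1 FPKM, 20 of the 38 tested members were CPEB1-associated, against 12.1% of all genes tested. They comprised 7 genes of complex III, 4 of complex IV (Cox4i1, Cox5a, Cox5b and Cox6a1) and 9 of the ATP synthase. Cox7a2l was the called gene that fell outside it, with ratios of 1.96 and 2.40. Many members lay close to the limit of 2, such as Cyc1 with 2.00 and 2.50 and Uqcrq with 2.07 and 2.35 inside it, and Cox6b1 with 1.96 and 1.88 and Cox7c with 1.95 and 1.63 outside it. The median log2 ratio of the members was 1.09 in experiment 1 and 1.15 in experiment 2, and that of all genes tested was 0.54 and 0.61. When FPKM was recomputed with TMM library sizes, none of the members and only 56 of all genes tested met the criterion. The number thus depends on the library total that the FPKM used, for the members and for all genes. With DESeq2 as the count test, 22 members and 1561 of all genes met the criterion with the deposited FPKM.

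CPEs were sought in the annotated 3′ UTRs of GENCODE M21 (build GRCm38, mm10), with TTTTAT and TTTTAAT as the canonical motifs on the transcribed strand. A canonical CPE lay in 6 of the 38 tested members (15.8%), against 60.2% of all genes tested. These were Cox5a, Cox5b, Atp5a1, Atp5g1, Atp5g2 and Atp5md, and none was in complex III. With 9 listed CPE variants the shares were 26.3% and 67.0%. Members have short 3′ UTRs, with a median of 202 bases for the longest one of each gene, against 1287 bases for all genes tested. Among genes with a 3′ UTR of at most 300 bases, a limit chosen after the values were seen, 1 of 26 members and 19.6% of 1430 genes held a canonical CPE. Of the members with a canonical CPE 4 of 6 were higher in CPEB1 IP than in IgG, and of those without one 17 of 32. The same shares over all genes tested were 14.3% and 15.3%. The motif is short, and its presence does not show that the site is bound. The windows of Cox5a, Cox5b and Atp5g1, which were higher over IgG, show such motifs in their surroundings. Atp5a1 also held a canonical CPE and was higher over IgG, but no window is printed for it. The motif is in capitals, each window is printed 5′ to 3′ in the sense of the mRNA, and all lie in the 3′ UTR exon.
Cox5a, chr9:57532330-57532359, plus strand: tgcctggaaatgTTTTATttgaacaaattt
Cox5b, site 1, chr1:36693410-36693439, plus strand: agtctttttttTTTTAATatatatatattg
Cox5b, site 2, chr1:36693497-36693526, plus strand: gaattgttagaaTTTTATttttaaaaaatt
Atp5g1, site 1, chr11:96072735-96072764, minus strand: gggcggggagcgTTTTATtttgttgagtcc
Atp5g1, site 2, chr11:96072389-96072418, minus strand: cctcagtcctgtTTTTATtcatgccccaca
Atp5g1, site 3, chr11:96071532-96071561, minus strand: aacaagtcattTTTTAATttttttataaga

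In Cox5a the motif starts at base 71 of a 3′ UTR of 155 bases and leaves 79 bases to the annotated end. Its nearest AATAAA or ATTAAA, the hexamers of the polyadenylation signal, starts 58 bases away. In Cox5b the motifs start at bases 112 and 200 of 372, and in Atp5g1 at bases 352, 698 and 1554 and again at 1563, in an overlapping window, of a 3′ UTR of 4252 bases, by far the longest among the members. Atp5g2 holds TTTTAT as well, at base 99 of 311, and was not called over IgG, with a log2 fold change of -0.01. So the genes for the same c subunit with a CPE in an annotated 3′ UTR differed, with Atp5g1 called and Atp5g2 not. Which of the annotated 3′ UTRs these cells used was not tested.

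Compared with input, CPEB1 IP was higher for 7 of 40 tested members and lower for 1, where 16.3% of all 12171 genes tested were higher and 16.7% lower. The share of members higher, 17.5%, was thus near the background. The median log2 fold change was 0.32 in complex III, 0.25 in complex IV and 0.15 in the ATP synthase, against -0.03 over all genes tested. By coding length 6 of the 7 higher genes were among the 28 tested members under 500 bases, and Cox4i1 was among the 12 longer ones. Over all genes tested 261 of 948 of the shorter class and 1618 of 9974 of the longer were higher. Uqcrh, the hinge protein that lies beside cytochrome c1, had 359.9 and 358 CPM in CPEB1 IP, 146 and 196 in input and 270.5 and 305 in IgG. The 3 groups did not overlap, with input lowest. Its log2 fold change over input was 1.10 ± 0.15 (edgeR adjusted p = 0.000111), the largest among the called members.

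Atp5md, a small membrane subunit also known as DAPIT, had 78.3 and 99.1 CPM in CPEB1 IP, 42.3 and 46.8 in input and 68.0 and 97.5 in IgG. It was higher than input by 1.03 ± 0.17 on the log2 scale (edgeR adjusted p = 0.000592) and overlapped IgG. Uqcrq (0.76), Uqcr10 (0.60), Cox6a1 (0.62) and Cox4i1 (0.53) were higher than input and also higher than IgG. Without CPEB1 IP replicate 2 the calls of Uqcr10 (edgeR adjusted p = 0.347) and Cox6a1 (0.0946) against input were lost. Atp5l, at 0.44, lost its call in 8 of the alternatives, DESeq2 and the replicate block among them, and that of Cox4i1 was lost without either CPEB1 IP library. Atp5c1 was lower than input, with 187 and 176 CPM in CPEB1 IP against 216 and 291 (log2 fold change -0.45 ± 0.15, edgeR adjusted p = 0.0322), and DESeq2 did not call it. That call was also lost without either CPEB1 IP library or without input replicate 2, and the log2 fold change ranged from -0.65 to -0.21, its value without input replicate 2, when 1 library was left out. Cox8b had 8 and 25 counts in CPEB1 IP against 4 and 6 in input, without a call (edgeR adjusted p = 0.0523).

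The input libraries differed from each other in these genes. Of the 38 members tested over IgG, 29 were higher in input replicate 2 than in replicate 1, with a median log2 ratio of 0.18, against 0.03 over all genes tested over IgG. Uqcrb, for example, had 84.5 and 132 CPM, and Cox5b 96.9 and 143. The members differed less between CPEB1 IP libraries, with a median log2 ratio of 0.03. Without input replicate 2 the median log2 fold change of the members in CPEB1 IP against input was 0.38 in place of 0.18. Over all genes tested it was -0.01 in place of -0.03. Without CPEB1 IP replicate 2 the medians were 0.19 for the members and -0.05 for all genes. The count of members called higher depended on which library was left out.

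IgG compared with input gives the background of the precipitation itself. Of 39 members tested, 2 were higher and 7 lower, while 21.4% of all 12980 genes tested were higher and 19.4% lower. The lower genes were large subunits of complex III and the ATP synthase, and they comprised 2 of the 4 core and redox subunits of complex III, 3 of the 5 head subunits and 2 of the 4 stalk subunits. Uqcrc1 had 173 and 158 CPM in IgG against 409 and 387 in input (log2 fold change -1.27 ± 0.15, edgeR adjusted p = 2.36e-08). Atp5c1 was at -1.07 ± 0.17 and Atp5a1 at -0.92 ± 0.14, and Uqcrc2, Atp5b, Atp5f1 and Atp5o were lower by less. The calls of Atp5f1 and Atp5o were lost when either IgG library was left out. The higher genes were Uqcrh, at 0.75 ± 0.16, and Atp5md, at 0.89 ± 0.22, which were also the members with the largest differences among those called in CPEB1 IP against input. That of Atp5md was lost without IgG replicate 2 and with DESeq2.

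No complex IV subunit was called in IgG against input, of 13 tested, by edgeR or by DESeq2, and 1 (Cox5b, named after its values were seen) had an unadjusted p under 0.05 by edgeR. Cox5b was called lower with the replicate block (edgeR adjusted p = 0.0499), without input replicate 1 (0.0019), with no filter on low counts and with the FPKM total, and its log2 fold change of -0.44 ranged from -0.68 to -0.16 when 1 library was left out. Their median log2 fold change was -0.01, against -0.31 in complex III, -0.34 in the ATP synthase and 0.03 over all genes. Cox4i1, for example, had 391 and 437 CPM in IgG and 366 and 409 in input, and Cox8a 227 and 259.9 in input and 258 and 276 in IgG. The summed CPM of complex IV was 1515 and 1646 in IgG, 1449.8 and 1723 in input and 1977 and 2032 in CPEB1 IP, so that CPEB1 IP lay above both. That of the ATP synthase was 2394 and 2563 in IgG, 3462 and 3967 in input and 3738 and 3636 in CPEB1 IP, so that IgG lay below both. For complex III the sums were 1166 and 1134, 1365 and 1484, and 1640 and 1714 in the same order. The comparisons share their libraries, so the values of a gene in 1 comparison are not independent of those in another. With the library total behind the FPKM as the scale the median of all genes in IgG against input moved from 0.03 to -0.85. There 34 members and 55.3% of all genes were called lower, and Uqcrh turned to -0.14.

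The members with long coding regions differed from the shorter ones in both comparisons with IgG. All 11 tested members with a coding length of at least 500 bases were higher in CPEB1 IP than in IgG, with a median log2 fold change of 0.55, and of the 27 shorter ones 10 were, with a median of 0.28. Over all genes 1566 of 10065 of the longer class and 191 of 891 of the shorter were higher. In IgG against input 7 of 12 members of at least 500 bases were lower and 0 of 27 shorter ones, beside 2343 of 10639 longer and 134 of 934 shorter genes over the whole table. The limit of 500 bases was chosen after the values were seen, and no test was made on it. Expression level also went with these comparisons. Of genes with an input FPKM of at least 10, 40.3% were lower in IgG than in input, against 19.4% of the 36 members there. Spearman's rho between input FPKM and log2 fold change over all genes was -0.54 in IgG against input. Length and level were not tested apart. Over the members Spearman's rho between coding length and log2 fold change was 0.50 in CPEB1 IP against IgG (n = 38), -0.56 in IgG against input (n = 39) and -0.44 in CPEB1 IP against input (n = 40). Over all genes tested with a coding length it was -0.30, 0.13 and -0.12, so that in the comparisons with IgG the order among the members ran opposite to that of all genes. Counts differed among the members as well. Atp5b, Atp5a1 and Uqcrc1 had at least 220 counts in every library, whereas Atp5k, of 213 coding bases, had 14 to 89. A difference of a given size is detected less readily at such low counts. Counts did not simply follow length. The long Uqcrc2 had 89 to 522, and the short Cox8a and Uqcrh, not called over IgG by edgeR, had 345 to 1437 and 362 to 1764. The part of counts in the split by length was not tested.

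**Figure D5:**
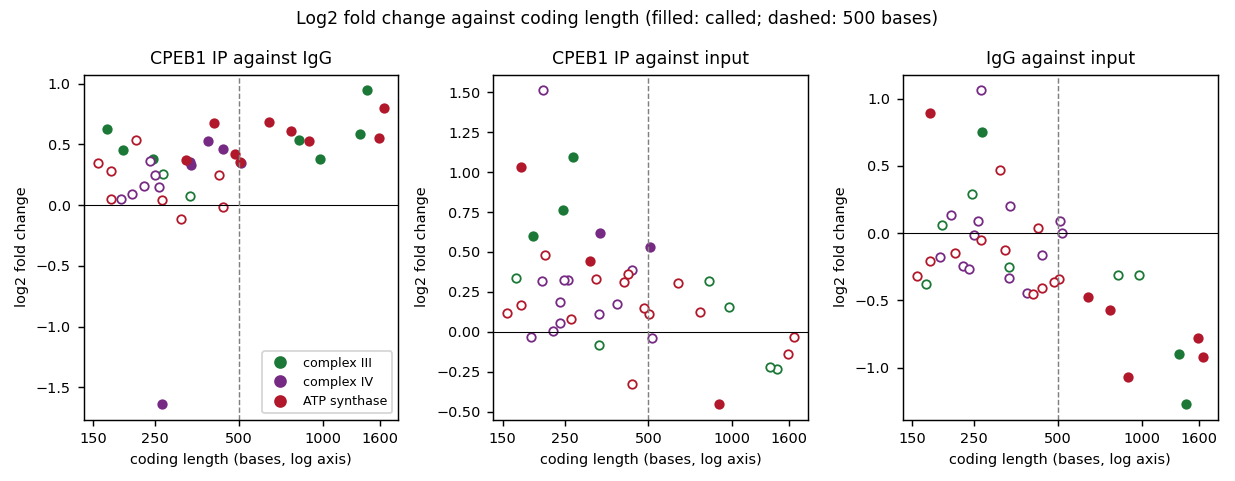
Log2 fold change against coding length in bases (log axis) for each tested member in the 3 comparisons, coloured by complex and filled where called, with the dashed line at 500 bases. In CPEB1 IP against IgG all 11 points right of the dashed line are filled and above 0, and in IgG against input the 7 filled points below 0 all lie right of it.

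Some counts may hold reads of other genes. The exons of 14 of the 45 members overlap another gene of the table, as 11765 genes of the whole table do, and whether the counting used strand is not given in the sources used here. Among members with several exons and no such overlap, 13 of 25 were higher in CPEB1 IP than in IgG, with a median log2 fold change of 0.36. Members of these families also have many processed pseudogenes, and 7 rows named as such, which the rule left out, had at most 9 counts in any library.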

How the data were processed

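RIP-seq of freshly isolated SCs gave 6 libraries made with SMART-Seq2, grouped by the antibody in the sample labels. Raw counts per gene, deposited by the authors for each library, came from featureCounts after HISAT mapping to mm10. FPKM values in the deposited tables equalled the count divided by summed exon length and by a library total larger than the counts on genes. The annotation release, strand setting and handling of multimapping reads are not given in the sources used here.

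The tests used edgeR 4.0.16 under R 4.3.3, with filterByExpr, TMM, and quasi-likelihood tests of 2 groups at a time with Benjamini-Hochberg adjustment at 0.05 over all genes tested. The SE is the log2 fold change divided by the square root of F. Printed CPM uses TMM over all 6 libraries. DESeq2 1.42.0 and other settings were alternatives, and figures used Python 3.11.15. In a simulation that shifted 200 genes by 1 on the log2 scale, 177 (CPEB1 IP against IgG), 171 (CPEB1 IP against input) and 168 (IgG against input) were recovered with 21, 8 and 3 unchanged genes called; smaller changes were not simulated. CPEs and lengths came from GENCODE M21, which matched all 45 members. Genes named with values were, in each complex, the 3 called members with the largest fold change in each comparison and direction and the 3 highest in input FPKM, together with the isoform groups, members under the count filter, and Cox5a and Uqcr10, which the paper names; others were named to complete a role. The members and lists were chosen with earlier results of these data known. Count floors of 3 cover counting error only.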

Additional observations from a re-analysis of the deposited data

How the results depend on the processing

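The median log2 fold change of each complex relative to all genes tested kept its sign under every alternative, except complex IV in IgG against input, -0.04, which turned to 0.10 without IgG replicate 1, 0.057 without input replicate 2 and 0.00078 among genes with several exons and no overlap. Leaving out 1 library at a time, it ranged in CPEB1 IP against IgG from 0.39 to 0.55 (complex III), 0.24 to 0.36 (IV) and 0.37 to 0.43 (ATP synthase), against input from 0.24 to 0.37, 0.15 to 0.50 and 0.10 to 0.31, and in IgG against input from -0.37 to -0.094, -0.29 to 0.10 and -0.41 to -0.24. The members higher over IgG (21) numbered 13 to 20 without 1 library, 13 of 25 with several exons and no overlap, and 37 with the FPKM total. The 1 lower member was 0 without any 1 library, with DESeq2, all 6 libraries in 1 fit, the FPKM total, no filter, or input FPKM of at least 10 (added after seeing the data). CPEB1-associated members (20) were 0 with TMM-scaled FPKM, where 56 of all genes passed, and fewer without either CPEB1 IP library. Against input, 7 higher became 4 with the FPKM total or without overlap and 3 to 19 without 1 library, and 1 lower became 0 with DESeq2 and 0 to 2. In IgG against input, 2 higher became 1 with DESeq2 or without overlap, 0 with the FPKM total or no filter, and 1 to 2 without 1 library; 7 lower became 34 with the FPKM total, 15 with no filter, 3 without overlap and 5 to 11.

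The FPKM total also turned single genes: over IgG Atp5g2 to 0.80 and Atp5l to 0.69; in IgG against input Atp5g3 to -0.85, Cox4i1 -0.79, Cox6a1 -0.68, Cox6b1 -0.80, Cox8a -0.75, Uqcr10 -0.82, Uqcrh -0.14 and Uqcrq -0.59. The shift of all genes (0.80 and -0.85) follows from the lower share of that total on genes in IgG. The cause of the other moves was not tested.

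Replicate numbers were shared by the groups, but the deviations of same-numbered libraries correlated at only -0.011, -0.0202 and 0.0316 over 14258 genes, with 2 pairs each. With the replicate block 20 members were higher and 1 lower over IgG, 6 and 1 against input, and 3 and 8 in IgG against input, where Cox5b (lower) and Atp5l (higher) gained a call; Cox7a2l over IgG and Atp5l against input lost theirs. Depth limits the genes of low counts: the 7 members under the filter over IgG had at most 25 counts in any library.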
